A study of Rattus norvegicus with 48 samples.

Results

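The libraries compared here are those of male Sprague-Dawley rats given the middle dose of thioacetamide (TAA) for 7 days and those of their time-matched controls. They were chosen by their sample labels alone and make up 6 of the 48 libraries of the series: middle dose 7-d replicates 34, 35 and 36, and control 7-d replicates 4, 5 and 6. The treated rats received 15 mg/kg of TAA once daily, and the controls received vehicle alone (0 mg/kg). All were sacrificed 24 h after the last dose, and small RNA was sequenced from a section of the liver of each rat. No altered allele is named for any group, the age of the rats is not given in the sources used here, and not every rat of a condition was profiled. The series as a whole holds 16 groups of 3 rats, with doses of 0, 4.5, 15 and 45 mg/kg at 3, 7, 14 and 28 days. It asks how liver miRNAs change with the dose and the duration of TAA. Each library is 1 rat. Standard deviations below are the spread between rats, and standard errors are those of the edgeR fit. Exact intervals cover counting error only.

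TAA is a hepatotoxicant that the liver itself turns into reactive products, and repeated dosing in rodents is a long-used model of liver injury, fibrosis and tumor formation. A miRNA is cut from a hairpin precursor, whose arms give the 5p and the 3p product. One arm, the guide, is loaded into an Argonaute protein and recognizes messenger RNAs mainly through its seed, bases 2 to 8 from its 5′ end, which then lowers the stability and translation of those messages. In the liver miR-122 is the classical hepatocyte miRNA, and miR-34a is known as a direct transcriptional target of p53.

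The sequences below are those of the differentially expressed miRNAs (DEMs) on which the results turn, with a relative of the same seed or of near-identical sequence where the relative behaved differently. They are RefSeq mature sequences of the GRCr8 build, written 5′ to 3′, and the capitals mark the seed. The first pair shares the seed ACCCGUA, and both members were higher in the treated rats.
miR-100-5p: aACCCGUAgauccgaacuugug
miR-99b-5p: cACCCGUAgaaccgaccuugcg
The next 3 share the seed GGCAGUG, but miR-34a-5p alone of them was a DEM.
miR-34a-5p: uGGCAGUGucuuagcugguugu
miR-34c-5p: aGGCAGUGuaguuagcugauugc
miR-449a-5p: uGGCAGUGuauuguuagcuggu
The following pair also shares a seed, AUGCACC, with 1 DEM in it.
miR-501-3p: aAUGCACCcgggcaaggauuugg
miR-500-3p: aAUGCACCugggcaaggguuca
The guide strands of the miR-125 family share the seed CCCUGAG.
miR-125b-5p: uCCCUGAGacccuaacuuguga
miR-125a-5p: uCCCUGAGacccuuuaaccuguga
The products of both arms of miR-212 are shown with miR-132-3p, which shares its seed AACAGUC with miR-212-3p.
miR-212-5p: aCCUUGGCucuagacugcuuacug
miR-212-3p: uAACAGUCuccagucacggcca
miR-132-3p: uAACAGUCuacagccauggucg
These are 3 further leading higher DEMs, which share no seed.
miR-6329: aAUGUGACucagcuaucugaaca
miR-450b-5p: uUUUGCGAuguguuccuaaua
miR-96-5p: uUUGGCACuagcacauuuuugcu
The lower DEMs miR-451-5p and miR-144-5p come from neighbouring hairpins and miR-455-3p from another chromosome. miR-10b-5p is set beside its abundant relative miR-10a-5p.
miR-451-5p: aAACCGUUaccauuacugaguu
miR-144-5p: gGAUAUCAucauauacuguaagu
miR-455-3p: gCAGUCCAcgggcauauacacu
miR-10b-5p: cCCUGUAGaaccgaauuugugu
miR-10a-5p: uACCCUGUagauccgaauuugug

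RefSeq held a mature sequence for 270 of the 301 tested miRNAs and for 41 of the 48 DEMs. Among the leading DEMs it held none for miR-99a-5p, miR-362-5p, miR-674-3p, miR-486 and miR-3577. Of the 214 seeds among the tested miRNAs, 2 were shared by at least 2 DEMs (ACCCGUA and AACAGUC), and 0 had both a higher and a lower DEM. In GRCr8, miR-100-5p lies at chr8:50798307-50798328 (+) within the span of the noncoding gene Lnc215, and miR-99b-5p at chr1:67350070-67350091 (+) within Spaca6. The position of miR-34a-5p is chr5:165815971-165815992 (+) within LOC103692514, and that of miR-6329 is chr8:61334292-61334314 (-) within Rdx. miR-501-3p lies at chrX:17927239-17927261 (+) within Clcn5, and miR-212-5p at chr10:60521771-60521794 (+) in no annotated gene span other than its own. Of the lower DEMs, miR-10b-5p lies at chr3:80035886-80035907 (+) within Hoxd4, miR-455-3p at chr5:81704881-81704902 (+) within Col27a1, and miR-451-5p at chr10:63459585-63459606 (+). Whether these positions are exonic or intronic was not examined.

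The series had reads of 664 mature miRNAs, and these 6 libraries had reads of 570. Tested were the 301 that reached 5 RPM (reads per 1000000 counted) in 3 or more of the 48 libraries. Total counts were between 8399722 and 11095988 per library, so that 3 counts, taken as the limit of detection, corresponded to between 0.270 and 0.357 RPM. Pearson's r of log2 (count + 1) across miRNAs, which are not independent replicates, was between 0.990 and 0.993 for pairs of rats of the same group. miR-192-5p, miR-22-3p, miR-26a-5p and miR-148a-3p took the first 4 ranks by reads in both groups.

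At the fold threshold and filter used here, the middle dose for 7 days went with more higher than lower miRNAs. DEMs were called at an unadjusted p below 0.05 in edgeR's quasi-likelihood F-test together with a fold change above 1.5, and 48 of the 301 tested miRNAs (15.9%) met both. Of these, 36 were higher (12% of those tested) and 12 lower (3.99%) in the treated rats. After Benjamini-Hochberg adjustment in edgeR, 44 of the 48 had an adjusted p below 0.05, 33 of them higher (11% of those tested) and 11 lower (3.65%). The 44 are 14.6% of those tested. At any fold change, 122 miRNAs (40.5%) had an unadjusted p below 0.05 and 83 (27.6%) an adjusted p below 0.05, of which 46 (15.3%) were higher and 37 (12.3%) lower.

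The 3 treated and the 3 control values did not overlap for 47 of the 48 DEMs, and for 139 (46.2%) of all tested miRNAs. The exception was miR-293-5p. The median log2 fold change was 1.13 over the higher DEMs, -1.02 over the lower DEMs and -0.02 over all tested miRNAs. A fold change above 2 was seen for 27 DEMs, of which 21 were higher and 6 lower, and 5 DEMs exceeded 4-fold. A mean below 10 normalized RPM in both groups was found for 17 DEMs (35.4%) and for 59 of all tested miRNAs (19.6%). A mean above 1000 in either group was found for 7 DEMs (14.6%) and for 55 of all tested miRNAs (18.3%). Without the filter on low values 41 DEMs were higher and 27 lower. With 5 RPM required in every library 33 were higher and 6 lower. The filter counted treated libraries as well, so miRNAs scarce in the controls could enter through libraries where they were high. The size of the split therefore depends on the filter.

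**Figure D1:**
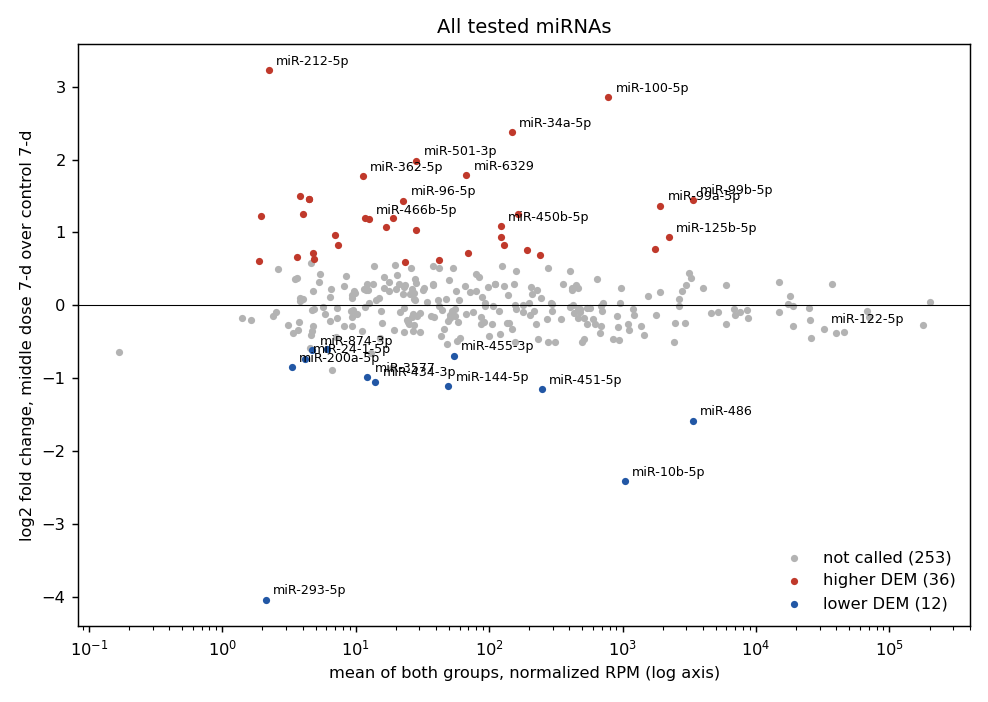
The log2 fold change (middle dose 7-d over control 7-d) of the 301 tested miRNAs against the mean of both groups in normalized RPM on a log axis, with each point a miRNA, red for the 36 higher DEMs and blue for the 12 lower DEMs. The most abundant miRNAs lie close to 0, while miR-100-5p, miR-34a-5p and miR-212-5p stand far above it and miR-10b-5p and miR-486 far below it.

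The miR-99/100 family held the clearest increase. These miRNAs are known in other systems to target mTOR and to lie in polycistrons with let-7 and miR-125 members. In upper quartile normalized RPM, miR-100-5p was at 151, 183 and 238 in the 3 controls and at 1514, 1400.2 and 1216 in the 3 treated rats. The lowest treated value was thus more than 5-fold above the highest control value. Its log2 fold change was 2.85 (standard error, SE, 0.17, edgeR adjusted p = 2.17e-05), or 7.23-fold, the smallest p-value of all tested miRNAs.

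miR-99b-5p stood at 1527, 1971 and 1886 normalized RPM in the controls against 4885, 5104 and 4719 in the treated rats, with a log2 fold change of 1.45 (SE 0.11, edgeR adjusted p = 2.90e-05). For miR-99a-5p the control values were 909, 1108 and 1200.2 and the treated values 2686, 2799.5 and 2811 normalized RPM, a log2 fold change of 1.37 (SE 0.11, edgeR adjusted p = 4.28e-05). In both, the treated rats lay close together and far above every control. Of the 4 tested members of the list, 3 were higher DEMs and 0 lower, against 12% and 3.99% of all tested miRNAs. The fourth, the passenger strand miR-99a-3p, had a log2 fold change of 0.29 (edgeR adjusted p = 0.0963). The passenger strands miR-100-3p and miR-99b-3p did not pass the filter and were not tested. miR-99b-3p did not rise with its guide. It was at 4.01, 4.63 and 4.12 normalized RPM in the controls and lower, without overlap, at 3.39, 2.44 and 3.10 in the treated rats. miR-100-3p had 1, 3 and 1 counts in the controls and 4, 1 and 2 in the treated rats.

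miR-100-5p differs from miR-99b-5p by 4 substitutions, A1C, U11A, A16C and U21C, counted from 1 at the 5′ end of miR-100-5p. In the RefSeq hairpin of miR-99a its best ungapped match of 22 bases has 1 mismatch, A16U. Reads of miR-100-5p and miR-99a-5p are therefore less certain to be told apart than those of miR-99b-5p. Within the family miR-100-5p rose by 2.85, and the other two by 1.45 and 1.37, on the log2 scale.

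Of the partners with which these miRNAs share a transcript or a seed-defined family, miR-125b-5p was the other DEM. It went from 1398, 1491 and 1722 normalized RPM in the controls to 2806, 2883 and 3101, which is a log2 fold change of 0.93 (SE 0.10, edgeR adjusted p = 0.000217). miR-125a-5p, with the same seed, had a log2 fold change of 0.28 (edgeR adjusted p = 0.0441) and stayed under the fold threshold, and the third tested miRNA with this seed, miR-351-5p, was at -0.08. In the miR-125 family 1 of 5 tested members was a higher DEM and 0 were lower, against 12% and 3.99% of all tested miRNAs. Of the 9 tested let-7 guide strands, 0 were DEMs, their median was -0.13, and let-7d-5p had an adjusted p below 0.05 (log2 fold change -0.30, edgeR adjusted p = 0.0441).

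The let-7 and miR-125a hairpins beside them gave no DEM. In the cluster of miR-99b, let-7e and miR-125a, 1 of 5 tested arms was a DEM, and let-7e-5p was at a log2 fold change of 0.03. Near miR-100, let-7a-5p, which is also made elsewhere in the genome, was at -0.25 (edgeR adjusted p = 0.0697).

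miR-34a-5p, the p53 target, was at 44.2, 52.1 and 46.5 normalized RPM in the controls and at 314, 199.9 and 226 in the treated rats. Every treated rat was well above every control, and replicate 34 was the highest. Its log2 fold change was 2.37 (SE 0.17, edgeR adjusted p = 2.90e-05), or 5.18-fold. Its passenger strand miR-34a-3p did not pass the filter. It had 1 count in each of the 3 controls and 17, 14 and 11 counts in the treated rats, and the ratio of the summed counts per counted read was 13.9 (95% exact interval 4.45 to 70.2, for counting error only).

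The seed-sharing miR-34c-5p lay on the other side. It was at 54.9, 60.0 and 56.7 normalized RPM in the controls and at 41.6, 33.7 and 43.2 in the treated rats, without overlap, and its log2 fold change of -0.54 (edgeR adjusted p = 0.0133) was under the fold threshold. miR-449a-5p, the third with this seed, was at 0.37 (edgeR adjusted p = 0.263). In the list of p53-linked miRNAs, 1 of 4 tested members was a higher DEM and 0 were lower. Over all tested miRNAs the shares were 12% and 3.99%. miR-192-5p was at 0.04 and miR-194-5p at -0.10.

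**Figure D2:**
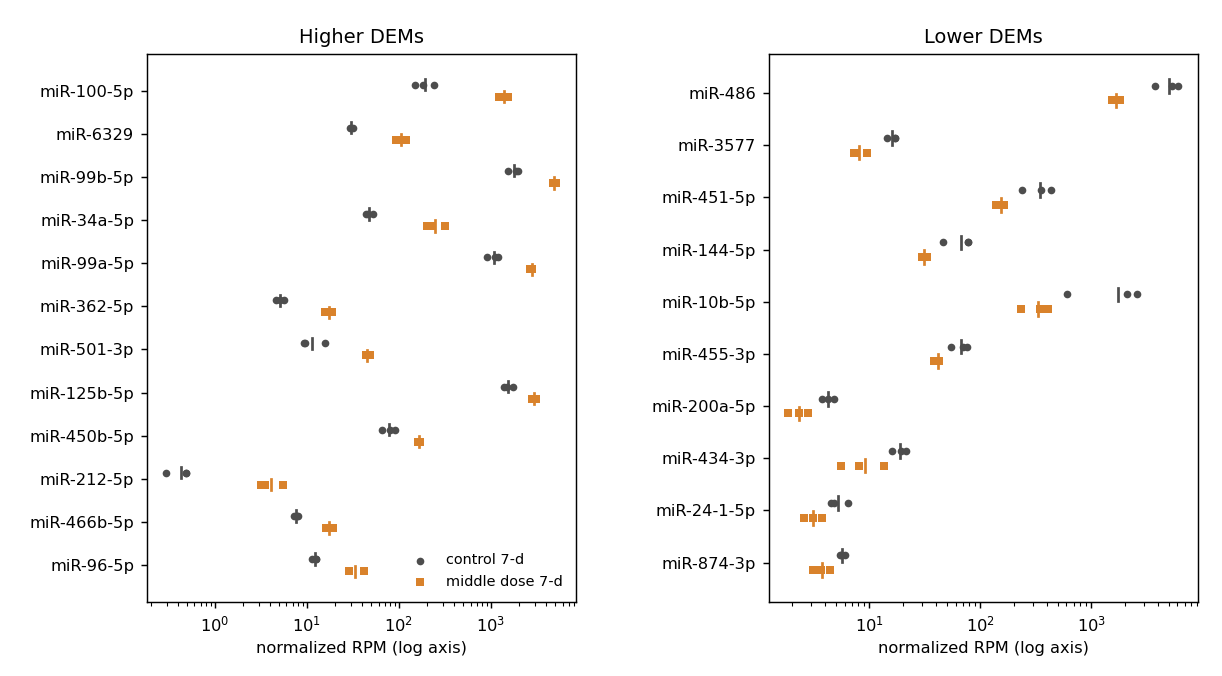
Normalized RPM (log axis) of the 12 higher and 10 lower DEMs with the smallest p-values among those with an edgeR adjusted p below 0.05 and groups that did not overlap, with grey circles for the 3 control 7-d rats, orange squares for the 3 middle dose 7-d rats and a vertical bar at each mean. The separation in every row follows from this choice, and the widest spread is that of the controls for miR-10b-5p, at 2102, 2566 and 602.

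miR-6329, a miRNA with no well-known role, had closely spaced controls, at 31.7, 29.9 and 29.4 normalized RPM. The treated rats were at 102, 92.7 and 119.8. The groups were far apart, and the log2 fold change was 1.79 (SE 0.13, edgeR adjusted p = 2.90e-05).

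On the X chromosome, miR-362-5p and miR-501-3p rose. miR-362-5p went from 4.62, 5.61 and 5.10 to 18.7, 15.5 and 18.5 normalized RPM, a log2 fold change of 1.77 (SE 0.16, edgeR adjusted p = 0.000101). For miR-501-3p the controls were at 9.24, 9.45 and 15.6 and the treated rats at 44.1, 48.6 and 43.5, a log2 fold change of 1.98 (SE 0.20, edgeR adjusted p = 0.000217). The treated values were close to each other in both, and every control was lower. By contrast miR-500-3p, with the same seed as miR-501-3p, was at 8.75, 9.94 and 10.6 in the controls and 9.61, 9.74 and 8.68 in the treated rats (log2 fold change -0.06). Of the 6 tested arms of this genomic cluster with a RefSeq sequence, miR-501-3p was the 1 DEM. miR-188-5p, miR-532-5p and miR-532-3p were at -0.08, -0.13 and -0.36. miR-362-3p, the other arm of miR-362-5p, was at 0.42 (edgeR adjusted p = 0.0709).

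Another X-linked cluster, known for its growth-inhibiting members miR-322 and miR-503, was represented by miR-450b-5p. It stood at 66.1, 79.0 and 90.1 normalized RPM in the controls and at 163, 170.3 and 167 in the treated rats (log2 fold change 1.09, standard error 0.12, edgeR adjusted p = 0.000379). Its seed-sharing neighbour miR-450a-5p had a log2 fold change of 0.51 (edgeR adjusted p = 0.00536), under the fold threshold. In the list of the cluster of miR-322, miR-503, miR-450a and miR-542, which does not hold miR-450b-5p, 0 of 6 tested members were DEMs, and miR-322-5p was at 0.01.

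Each tested member of 3 small clusters or families was a higher DEM, against 12% of all tested miRNAs. The filter counted treated libraries as well, so a miRNA scarce in the controls could be tested through libraries where it was high. Such scarce miRNAs include miR-212-5p, miR-212-3p and miR-466b-2-3p, with control means of 0.424, 1.49 and 2.38 normalized RPM. Listed members that failed the filter, such as miR-132-5p and miR-466d, are not counted. For the miR-132 and miR-466 lists, 3 of 3 is therefore partly set by the filter. For the sensory-organ cluster of miR-183, miR-96 and miR-182, the counts were 3 of 3 higher. miR-96-5p went from 11.4, 12.6 and 12.7 to 28.9, 28.9 and 41.8 normalized RPM (log2 fold change 1.44, edgeR adjusted p = 0.000526). The more abundant miR-182 went from 1176, 1280.4 and 1432 to 1756, 2171 and 2739 (log2 fold change 0.78), and miR-183-5p was at 0.82. Replicate 36 was the highest of the treated rats in all 3. Against all 12 controls of the series, of which one 3-d library had a low total, miR-182 and miR-183-5p were no longer DEMs (log2 fold changes 0.46 and 0.48).

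The CREB-responsive cluster of miR-132 and miR-212 also had 3 of 3 tested members higher, all of low abundance. miR-212-5p had the largest fitted increase of all, from 0.486, 0.295 and 0.491 to 3.20, 3.47 and 5.48 normalized RPM. These values rest on 12 counts in the controls and 124 in the treated rats, a ratio of 10.3 per counted read (95% exact interval 5.68 to 20.4, for counting error only). The fitted log2 fold change was 3.22 (SE 0.38, edgeR adjusted p = 0.000444). miR-132-3p was at 0.96 (edgeR adjusted p = 0.0237) and miR-212-3p at 0.61 (edgeR adjusted p = 0.111). The call of miR-212-3p was lost when any 1 of the 6 libraries was left out, with all 12 controls, with no filter, in the 48-library fit, and in edgeR's exact test and the DESeq2 test.

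The miR-466 family, which lies within the span of the gene Sfmbt2, had 3 of 3 tested list members higher. miR-466b-5p went from 7.17, 8.07 and 7.75 to 16.3, 16.9 and 19 normalized RPM (log2 fold change 1.18, edgeR adjusted p = 0.000526). miR-466b-2-3p was at 1.45 and miR-466c-5p at 0.72. The passenger or partner arms miR-466b-3p and miR-466c-3p were DEMs as well (1.23 and 1.5). Against all 12 controls miR-466b-5p and miR-466c-3p remained DEMs, while miR-466b-2-3p (0.77), miR-466c-5p (0.58) and miR-466b-3p did not. Those controls include the 3-d library of low total, in which 3 counts corresponded to 10.2 RPM. miR-466b-2-3p and miR-466b-4-3p had identical counts in every library and are 1 measurement, and members of this repeat-rich family can share reads.

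The other higher DEMs included several arms that are normally the scarcer product. miR-21 is raised in many injured tissues. Its passenger strand miR-21-3p went from 100.4, 115 and 77.1 to 173, 225 and 303 normalized RPM (log2 fold change 1.26, standard error 0.22, edgeR adjusted p = 0.00367). The guide miR-21-5p, at 36723, 38882 and 24363 in the controls and 27811, 44749 and 49655 in the treated rats, overlapped between the groups (log2 fold change 0.29, edgeR adjusted p = 0.360). Against all 12 controls miR-21-3p was at 0.51 and was not a DEM. In the list of miR-221 and miR-222, miRNAs linked to proliferation, miR-221-5p was a higher DEM (1.07), and miR-221-3p and miR-222-3p were not (0.11 and 0.52).

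miR-190b-5p rose from 9.97, 10.9 and 13.7 to 24.9, 22.8 and 31.8 normalized RPM (log2 fold change 1.19, edgeR adjusted p = 0.00224), with the seed-sharing miR-190a-5p at 0.26. Of the 4 tested members of the miR-7 and miR-190 list it was the 1 DEM, and miR-7a-5p was at 0.52 (edgeR adjusted p = 0.0262). miR-674-3p was at 87.0, 90.6 and 73.6 normalized RPM in the controls and 174, 148 and 160.2 in the treated rats (log2 fold change 0.94). Of the DEMs not described elsewhere and named here after their values were seen, miR-3559-5p, miR-3473, miR-3068-3p and miR-219a-1-3p were higher by 0.75, 1.20, 0.62 and 0.83 on the log2 scale.

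Among the lower DEMs the red blood cell miRNAs led. miR-486, miR-451-5p and miR-144-5p are abundant in erythroid cells, where miR-451 and miR-144 are made from 1 transcript. miR-486 was at 5339, 6075 and 3736 normalized RPM in the controls and at 1684, 1548 and 1812 in the treated rats, 3.00-fold lower (log2 fold change -1.59, standard error 0.16, edgeR adjusted p = 0.000217). miR-451-5p was at 357, 434 and 238 against 139.8, 160.5 and 163 (log2 fold change -1.15, edgeR adjusted p = 0.00359). miR-144-5p was at 78.3, 78.2 and 46.4 against 30.1, 30.3 and 33.4 (log2 fold change -1.11, edgeR adjusted p = 0.00413).

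Control replicate 6 was the lowest control for all 3, yet lay above every treated rat. Of the 6 tested members of the list, 3 were lower DEMs and 0 higher, against 3.99% and 12% of all tested miRNAs. The median log2 fold change of the list was -0.72, against -0.02 over all tested miRNAs. The other arm of the miR-144 hairpin, miR-144-3p, overlapped between the groups and was at -0.32 (edgeR adjusted p = 0.175), and miR-16-5p and miR-15b-5p, which many other cells also make, were at -0.18 and -0.25. The summed level of the list was carried mostly by miR-16-5p, with means of 9287 normalized RPM in the controls and 8208 in the treated rats. It was between 12860 and 16771 normalized RPM in the controls and between 9659 and 10601 in the treated rats. In tissue RNA, fewer cells of a type and less RNA per cell cannot be told apart. Against all 12 controls the log2 fold change of miR-486 was -2.77, with an unadjusted p of 0.0287 and an edgeR adjusted p of 0.216.

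miR-10b-5p, encoded beside Hoxd4, had the second largest fitted decrease and the least even controls. It stood at 2102, 2566 and 602 normalized RPM in the controls and at 236, 348 and 405 in the treated rats. Control replicate 6 was thus nearer to the treated rats than to the other controls, although the groups did not overlap. Its log2 fold change was -2.41 (SE 0.46, edgeR adjusted p = 0.00536) and was -2.82 without control replicate 6. The 14-d controls of the series were at 214, 505 and 254, in the range of the treated rats here, and against all 12 controls miR-10b-5p was not a DEM (log2 fold change -1.31).

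Over the 21 bases at which it can be aligned to miR-10a-5p, it differs by U12A (counted from 1 at the 5′ end of miR-10a-5p). miR-10a-5p had a mean of 51253 ± 7853 normalized RPM in the controls and 39650.0 ± 3030.0 in the treated rats (SD, n = 3), with a log2 fold change of -0.37 (edgeR adjusted p = 0.0343). In the miR-10 list 1 of 3 tested members was a lower DEM and 0 were higher, against 3.99% and 12% of all tested miRNAs.

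miR-293-5p, known from embryonic stem cells, had 50, 56 and 4 counts in the controls and 2, 0 and 5 in the treated rats. Its fitted log2 fold change of -4.04 (SE 1.06, edgeR adjusted p = 0.0212) rested on control replicates 4 and 5, and the third control lay within the treated range. Those 2 controls also exceeded replicate 6 in miR-10b-5p, and in miR-205, which was at 11.9 and 11.4 against 2.65 normalized RPM. The part of this difference between control rats in the results was not tested.

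miR-455-3p, a miRNA encoded within the collagen gene Col27a1, went from 69.9, 76.3 and 54.5 to 42.8, 38.4 and 42.9 normalized RPM, without overlap. Its log2 fold change was -0.69 (SE 0.14, edgeR adjusted p = 0.00760), near the fold threshold. It was -0.58 and no longer a DEM when libraries were scaled by their size alone. The call was also lost in the 48-library fit and with 5 RPM required in every library. miR-3577 went from 17.1, 17 and 14.5 to 9.52, 7.68 and 7.34 (log2 fold change -0.99, edgeR adjusted p = 0.00295). Against all 12 controls miR-455-3p was at -2.02, with an unadjusted p of 0.0422 and an edgeR adjusted p of 0.244. There miR-3577 was at -1.60 and was not a DEM. miR-200a-5p, miR-24-1-5p and miR-874-3p were all below 10 normalized RPM and lower by 0.85, 0.73 and 0.62 on the log2 scale.

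In the imprinted Dlk1-Dio3 cluster, whose many miRNAs come from the maternal chromosome, 6 of 30 listed miRNAs passed the filter. Of these, 2 were lower DEMs, against 3.99% of all tested miRNAs. miR-434-3p was at 15.9, 21.3 and 19.5 normalized RPM in the controls and 13.7, 8.06 and 5.58 in the treated rats (log2 fold change -1.05, edgeR adjusted p = 0.0250). miR-136-3p was at -0.60 (edgeR adjusted p = 0.0923). miR-127-3p and miR-411-5p were at -0.15 and -0.66 with SEs of 0.49 and 0.38, so that no difference was detectable for them. Against all 12 controls neither of the DEMs was called, and miR-136-3p was at 0.12. The pooled controls include 3-d replicate 1, which had a total of 293331 counts. There 3 counts corresponded to 10.2 RPM, above the means of miR-136-3p here (7.38 normalized RPM in the controls and 4.86 in the treated rats).

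The hepatocyte miRNAs moved little. Of the 7 tested members of that list, 0 were DEMs and their median was -0.09, while 15.9% of all tested miRNAs were DEMs. miR-122-5p was at 35735, 36355 and 34886 normalized RPM in the controls and 28735, 25362 and 31591 in the treated rats. The groups did not overlap, and the log2 fold change of -0.32 (SE 0.08, edgeR adjusted p = 0.0207) stayed under the fold threshold. miR-192-5p was at 0.04 and overlapped. The summed level of the list, carried mostly by miR-192-5p, was between 304015 and 340200 in the controls and between 301529 and 328137 in the treated rats. The labelled tissue thus showed hepatocyte miRNAs in both groups, but the sum says little about miR-122. Its other arm, miR-122-3p, was at -0.28 without overlap.

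Markers of other liver cells were examined next. In the list of stellate cells and smooth muscle 1 of 7 tested members was a higher DEM and 0 were lower, against 12% higher and 3.99% lower of all tested miRNAs. This was miR-199a-5p, which rose from 180.0, 200.1 and 176 to 255, 347 and 297 normalized RPM (log2 fold change 0.69, edgeR adjusted p = 0.00432). It was under the fold threshold without middle dose replicate 35 (0.57). The guide strand of the same hairpin, miR-199a-3p, was at -0.02. miR-143-3p and miR-145-5p, smooth muscle miRNAs, were at -0.37 and -0.50 (edgeR adjusted p = 0.0181 and 0.00779). Their other arms, miR-143-5p and miR-145-3p, were at 0.07 and 0.46 (edgeR adjusted p = 0.722 and 0.0105), and miR-214-3p was at 0.15. At an adjusted p below 0.05, 2 members were higher and 2 lower, against 15.3% and 12.3% of all tested miRNAs. The median of the list was 0.07. Its summed level, carried mostly by miR-143-3p, was between 43647 and 49303 normalized RPM in the controls and between 32899 and 41611 in the treated rats.

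Of 7 tested leukocyte miRNAs 0 were DEMs, but 3 had an adjusted p below 0.05 at a smaller fold. Over all tested miRNAs 15.9% were DEMs, and 27.6% had an adjusted p below 0.05 at any fold. The myeloid miR-223-3p and the pan-leukocyte miR-142-3p were higher (0.54 and 0.47, edgeR adjusted p = 0.0311 and 0.00829). The lymphocyte miRNA miR-150-5p was lower, at 614, 642 and 544 normalized RPM in the controls and 403, 445 and 452 in the treated rats (-0.47, edgeR adjusted p = 0.00760). The summed level of the list, between 4380 and 5609 in the controls and between 4978 and 5358 in the treated rats, overlapped.

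In the bile duct and epithelium list 0 of 7 tested members were DEMs and 0 had an adjusted p below 0.05. The shares of all tested miRNAs were 15.9% and 27.6%. miR-200b-3p was at 0.04 and miR-31a-5p at -0.13. The sum of the list was between 3288 and 3402 normalized RPM in the controls and between 3154 and 3484 in the treated rats. In the endothelium list 0 of 2 were DEMs, and miR-126a-3p was at 0.28 (edgeR adjusted p = 0.0173). Of the muscle list, 2 members were tested, and miR-499-5p was a higher DEM at 0.60 while miR-133a-3p was at -0.59 (edgeR adjusted p = 0.207). The sum of the list, carried mostly by miR-499-5p, was between 21.7 and 25.8 normalized RPM in the controls. It was higher, between 29.2 and 35.9, in the treated rats. Of 3 tested brain miRNAs 0 were DEMs, and of 3 pancreas miRNAs 0 passed the filter, with a sum of at most 0.196.

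Other families gave 0 DEMs, against 15.9% of all tested miRNAs. This held for 12 tested members of the miR-17 to miR-92a clusters, whose median was -0.01, and for 5 of the miR-30 family, whose median was -0.21 and of which miR-30d-5p (-0.28) and miR-30b-5p (-0.24) had an adjusted p below 0.05. In the antifibrotic miR-29 family, 0 of 5 were DEMs, and miR-29b-3p was at 0.52 (edgeR adjusted p = 0.0160). In the clusters of miR-193 and miR-365, 0 of 4 were DEMs, the median was -0.43, and miR-193a-3p and miR-365-3p were at -0.46 and -0.50 (edgeR adjusted p = 0.00760 and 0.0131). In the metabolic list of miR-33, miR-103, miR-107 and miR-378, 0 of 7 were DEMs, and miR-378a-3p was at -0.45 (edgeR adjusted p = 0.00477).

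**Figure D3:**
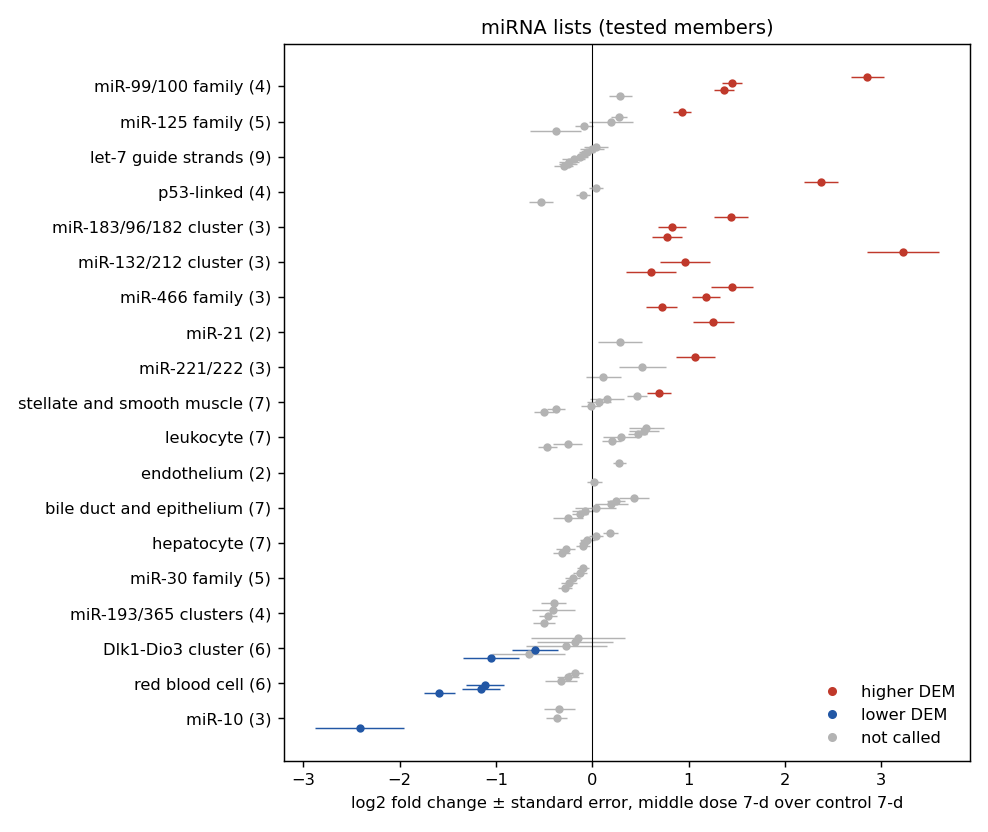
The log2 fold change of each tested member of 19 of the lists with its standard error (horizontal bars), middle dose 7-d over control 7-d, in red for higher DEMs, blue for lower DEMs and grey for miRNAs not called, with the number of tested members after each name. The lists of the miR-99/100 family, the miR-183 cluster, the miR-132 cluster and the miR-466 family lie to the right, the red blood cell list to the left, and the hepatocyte and let-7 lists close to 0.

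For 81 hairpins both arms were tested, and the log2 ratio of the 5p to the 3p product (each in raw counts plus 0.5) was computed in every rat. In 34 of the 81 (42%) the ratios of the treated and control rats did not overlap. Of the 20 hairpins with a DEM, 3 had both arms called (miR-212, miR-466b and miR-466c), and 16 had ratios without overlap. These 20 were chosen by a called arm, which favours separated ratios, so the 16 are not a further finding about the arms. The ratio changed by more than 1 on the log2 scale for miR-212 (2.48), miR-362 (1.36) and miR-99a (1.09), each toward the 5p product.

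The ratio of miR-221 changed by 0.98 toward its 5p product, the usual passenger, and that of miR-199a by 0.70. For miR-21 the mean ratio was 8.40 ± 0.11 in the controls and 7.44 ± 0.17 in the treated rats (SD, n = 3), a change of -0.96 toward the 3p passenger. miR-374, named here after its values were seen, changed by -0.94 in the same direction. In the miR-145 hairpin the arms moved apart. Its 5p product went from 294, 363 and 321 to 215, 239 and 236 normalized RPM, and its 3p product from 309, 373 and 335 to 448, 506 and 450.2. Neither arm passed the fold threshold (log2 fold changes -0.50 and 0.46, edgeR adjusted p = 0.00779 and 0.0105), and the ratio fell by 0.97 on the log2 scale in rats that did not overlap.

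**Figure D4:**
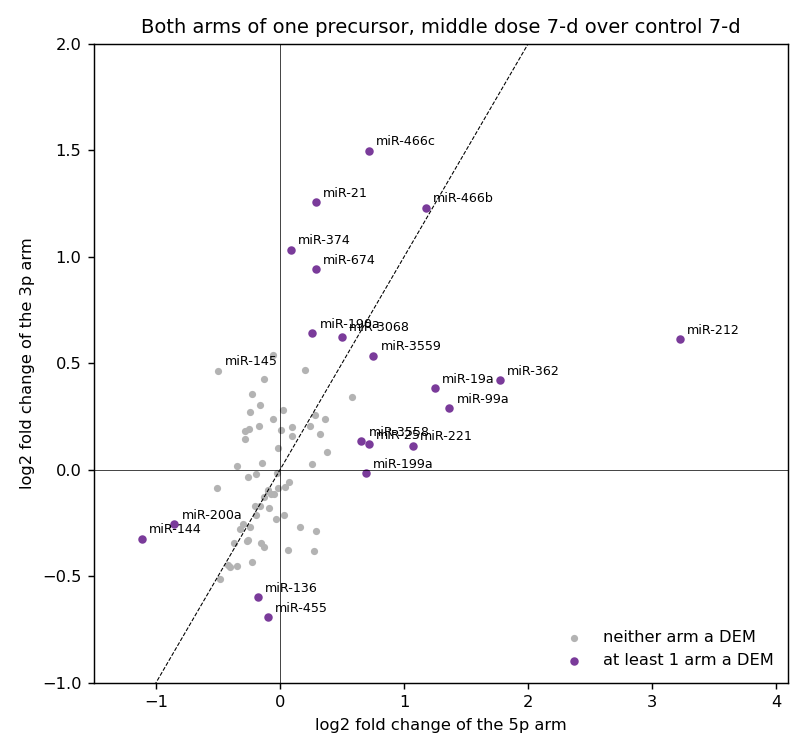
The log2 fold change of the 3p arm against that of the 5p arm for 81 hairpins, middle dose 7-d over control 7-d, with purple for the 20 hairpins with a DEM, grey for the others and a dashed line where both arms change equally. miR-212, miR-362 and miR-99a lie far to the right of the line and miR-21, miR-374 and miR-466c above it, and miR-145 lies at -0.50 for 5p and 0.46 for 3p.

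By RefSeq position, 15 clusters of neighbouring hairpins (no gap above 10000 bases) had at least 2 tested hairpins and a DEM. Only arms with a RefSeq mature sequence were counted, which left out DEMs such as miR-362-5p and miR-99a-5p. In 3 of them all tested arms were called, namely the cluster of miR-182, miR-96 and miR-183, that of miR-212 and miR-132, and the neighbouring copies of miR-466b. For the latter 2 the limit set by the filter, given above, holds here too. In the cluster of miR-144 and miR-451, 2 of 3 arms were lower DEMs. In that of miR-127, miR-434 and miR-136, 2 of 3 were lower DEMs. In the other 10 a single counted arm was called. Examples were miR-19a-5p (1.25) of the 9 tested arms around miR-17 and miR-25-5p (0.72) of the 6 around miR-25. Others were miR-199a-5p of the 3 around miR-199a and miR-214, and miR-24-1-5p (-0.73) of the 5 around miR-23b. There miR-23b-3p was at -0.40 and miR-27b-3p at -0.03. The cluster of miR-501 is among the 10, although miR-362-5p, left out of the count, is a further DEM in it.

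The middle dose was then set against the other doses at 7 days. These comparisons share the middle dose libraries with the one above, and the differences of treatment effect share the controls as well, so they are not independent of it. Against the low dose, 101 miRNAs (33.6%) differed by the same rule, 53 higher (17.6%) and 48 lower (15.9%) at the middle dose, and 95 of them (31.6% of those tested) had an edgeR adjusted p below 0.05. Against the high dose, 46 (15.3%) differed, 11 higher (3.65%) and 35 lower (11.6%), and 23 (7.64%) had an edgeR adjusted p below 0.05. Without high dose replicate 26 the number was 73, and with 5 RPM required in every library it was 29, of which 16 were higher and 13 lower.

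The miRNAs raised at the middle dose did not share 1 order of doses. miR-34a-5p was lower at the middle dose than at either other dose, with 549, 596 and 450.2 normalized RPM at the low and 547, 499 and 853 at the high dose, against 314, 199.9 and 226. It differed by -1.11 from the low dose (edgeR adjusted p = 0.00343) and by -1.36 from the high dose (edgeR adjusted p = 0.00615). miR-6329 was at 110.4, 119 and 93.7 at the low dose, overlapping the middle dose (difference -0.04, edgeR adjusted p = 0.835), and at 227, 246 and 250.2 at the high dose (difference -1.20, edgeR adjusted p = 0.000361). miR-466b-5p was lower at the middle than at the low (-0.68, edgeR adjusted p = 0.0175) and the high dose (-1.30, edgeR adjusted p = 0.00363).

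miR-100-5p, by contrast, was highest at the middle dose on average. The low dose rats were at 221, 171 and 416 normalized RPM, and the difference was 2.35 (edgeR adjusted p = 0.0277). At the high dose 2 rats were at 211 and 133 and replicate 26 at 1638, and the difference of 1.06 was not beyond the spread between rats (edgeR adjusted p = 0.350). Replicate 26 also had the highest values among the high dose rats for miR-99b-5p (5440.3 against 1472 and 1264) and miR-125b-5p (2664 against 1250.1 and 844) and the lowest for miR-486 (717 against 3406 and 2780.4). In these 4 miRNAs that rat lay nearer to the middle dose rats than to its own group.

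Of the miRNAs with the smallest p-values between the middle and low doses, miR-128-3p had a difference of 1.67 (edgeR adjusted p = 0.000734) and was at 0.03 against the controls, where its groups overlapped. On the higher side, miR-125a-5p and miR-674-3p differed by 1.13 and 1.17. The hepatocyte miRNA miR-122-5p was at 57788, 57159 and 64382 normalized RPM at the low dose, above the controls and the middle dose rats alike, and differed by -1.07 (edgeR adjusted p = 0.000238). miR-378a-3p and miR-378b differed by -0.88 and -0.97. Against the high dose, miR-335 (1.22, edgeR adjusted p = 0.00979) and the epithelial miR-200b-3p (1.16, edgeR adjusted p = 0.0397) were higher, and miR-429 was at 0.75 (edgeR adjusted p = 0.0578).

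**Figure D5:**
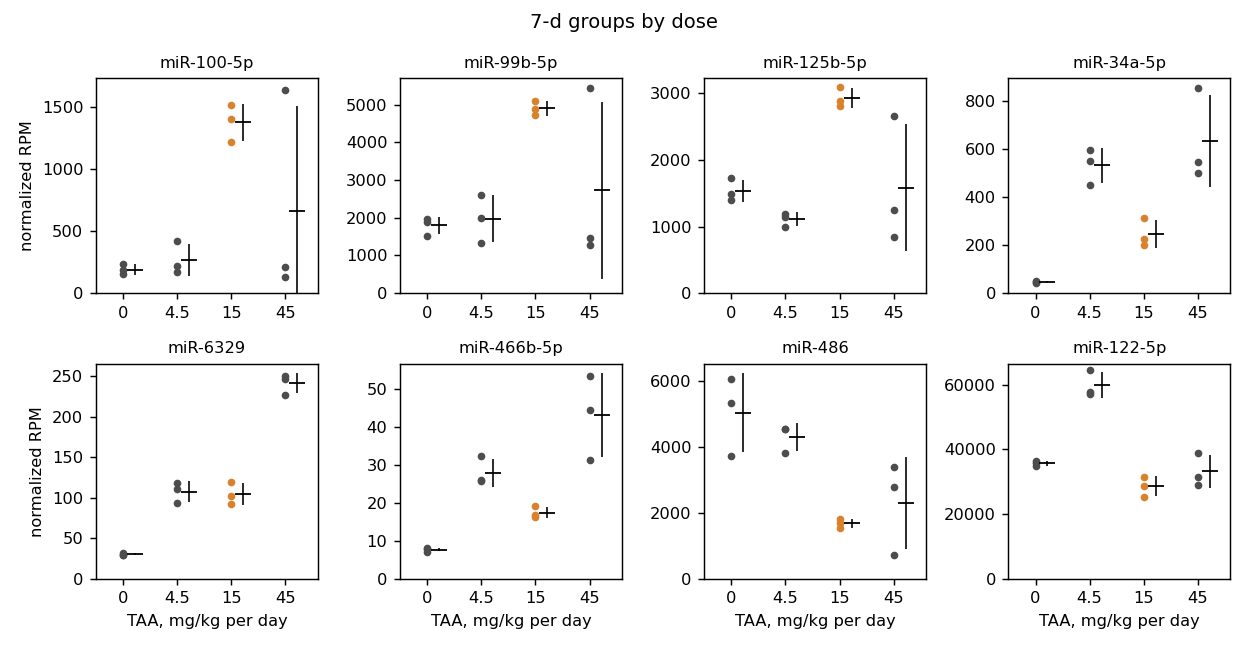
Normalized RPM (linear axes from 0) of 8 miRNAs in the 7-d groups by daily dose, with points for single rats (orange for the middle dose) and a bar for mean ± SD beside them, cut at 0 where it would pass below. miR-34a-5p and miR-466b-5p are lower at 15 mg/kg than at the doses on either side, miR-6329 is highest at 45 mg/kg, and 1 rat at 45 mg/kg stands with the middle dose rats in miR-100-5p, miR-99b-5p and miR-125b-5p.

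The effect of the middle dose at 7 days was finally compared with its effect at 14 days, each against its own controls. The effects differed for 37 miRNAs (12.3%) by the same rule, 21 higher (6.98%) and 16 lower (5.32%) at 7 days, and 5 of these (1.66% of those tested) had an edgeR adjusted p below 0.05. miR-34a-5p rose less at 7 days than at 14 days, when the controls were at 24.4, 33 and 31.1 normalized RPM and the treated rats at 525, 604 and 366 (difference of effects -1.70, edgeR adjusted p = 0.0130). For miR-21-3p the effect was larger at 7 days (difference 1.39, edgeR adjusted p = 0.0226), and the 14-d controls, at 231, 172 and 263, were higher than the 7-d controls. The effects on miR-378a-3p and miR-193b-3p differed by -0.61 and -1.10 (edgeR adjusted p = 0.0184 and 0.0226), both lying below every control at 7 days and above every control at 14 days. miR-10b-5p differed by -2.86 (edgeR adjusted p = 0.0226). Every 7-d control of miR-10b-5p lay above every 14-d control, as given above, so the level of the controls enters this difference too.

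For the miR-99/100 family no difference between the times was detectable. At 14 days miR-100-5p was at 274, 295 and 209 normalized RPM in the controls and 1442, 1134 and 1534 in the treated rats, and the difference of effects was 0.45 (SE 0.25, edgeR adjusted p = 0.360). For miR-99b-5p it was 0.12 (SE 0.16) and for miR-6329 0.11 (SE 0.24). These SEs leave room for differences of effect that were not detectable with 3 rats a group. miR-193a-3p and miR-30d-3p, at 0.64 and 0.79, had edgeR adjusted p-values of 0.0930.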

How the data were processed

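Small RNA libraries (Illumina TruSeq) of the livers of 3 rats a group were sequenced by the study. After adaptor trimming, reads 18 to 25 bases long were assigned by the authors to miRBase release 21 with miRDeep2, and raw counts per mature miRNA and precursor were deposited, neither normalized, filtered nor pooled. Per the labels, FastQC and the rn5 build were also used.

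From these counts, a mature miRNA on several precursors (71, of which 64 had a read) took the counts of its most-read precursor. The 301 miRNAs reaching 5 RPM in 3 or more of the 48 libraries were fitted over the 6 libraries in edgeR 4.0.16 (R 4.3.3), scaled by the upper quartile, with its quasi-likelihood F-test. Standard errors are the log2 fold change divided by the square root of F. Other doses were compared in a fit of the 12 libraries of 7-d, and the 14-d effect in a fit of the 12 middle dose and control libraries of both times. A DEM had unadjusted p below 0.05 and a fold above 1.5, after the paper's methods. Adjusted p-values are Benjamini-Hochberg over the 301. With 3 rats against 3 no permutation test of a single miRNA can reach 0.05, and none was used. Scripts were tested on simulated data. Alternatives were TMM, DESeq2 size factors, library size alone, other filters, the Wald test of DESeq2 1.42.0, edgeR's exact test, summed precursors, larger fits, pooling of all 12 controls, and leaving out each library. Tables used Python 3.11.15, pandas 2.3.3 and numpy 2.4.6.

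The miRNAs, lists and tests were chosen with earlier results of these data known. Named were the 12 higher and 10 lower DEMs with the smallest p-values among those with adjusted p below 0.05 and no overlap, miRNAs the paper names, up to 4 members of each list, the other arms of these and, in each comparison with another condition, the 3 with the smallest p in each direction. Names outside this rule were added where 5 or fewer were counted or a genomic neighbour or seed relative is described. Seeds, hairpins and gene spans are RefSeq (GRCr8). Detection limits and intervals cover counting error only.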

Additional observations from a re-analysis of the deposited data

Results flagged for a closer look

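The results below were picked out because the middle dose effect differed from that of another dose or of 14 days by a test of the difference itself (edgeR, log2 scale, 3 rats a group, no permutation test possible below 0.1). Against the low dose at 7 days, miR-128-3p (1.67), miR-125a-5p (1.13) and miR-674-3p (1.17) were higher, and miR-378a-3p (-0.88), miR-122-5p (-1.07) and miR-378b (-0.97) lower, with adjusted p-values from 0.000238 to 0.000734. Against the high dose at 7 days, miR-335 (1.22) and miR-200b-3p (1.16) were higher, and miR-6329 (-1.20), miR-466b-5p (-1.30) and miR-34a-5p (-1.36) lower, with adjusted p-values from 0.000361 to 0.0397. Between the effects at 7 and at 14 days, miR-21-3p differed by 1.39, miR-34a-5p by -1.70, miR-378a-3p by -0.61 and miR-193b-3p by -1.10, with adjusted p-values from 0.0130 to 0.0226. For miR-34a-5p the differences from the high dose and from 14 days have the same middle dose libraries in them, so they are not independent.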

How the results depend on the processing

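No paired analysis was possible because the running replicate numbers are unique to each rat and the groups share none. Over 18 alternatives, 25 of the 48 DEMs were called wherever they were tested, and of 846 values of single DEMs 775 kept their call, 70 lost it and 1 reversed (miR-136-3p, 0.12 with all 12 controls pooled). The number of DEMs was 38 with all 12 controls pooled, of which one has a low total (18 of the 48 lost their call), and 68 with no filter. With no filter 41 were higher and 27 lower DEMs, and with 5 RPM in every library 33 and 6, in place of 36 and 12. Leaving out 1 library at a time gave 46 to 55 DEMs, 35 to 42 higher and 9 (without control replicate 5) to 17 (without middle dose replicate 34) lower. For the other comparisons the ranges were 38 to 73 against the high dose (73 without high dose replicate 26) and 25 to 39 between the effects at 7 and 14 days. With 5 RPM in every library those against the high dose and between times numbered 29 and 24, and with adjusted p-values 23 and 5. Scaling by library size alone moved the median log2 fold change of the tested miRNAs from -0.02 to 0.09. The split of higher to lower moved with scaling and filter: against the low dose 84 to 31 by library size alone (53 to 48 as reported), against the high dose 17 to 26 by DESeq2 size factors and 14 to 26 by TMM (11 to 35), and 16 to 13 with 5 RPM in every library and 29 to 30 with no filter, and between times 14 to 19 by library size alone (21 to 16). The cause of these shifts was not tested. Of the 48 DEMs, 17 had means below 10 normalized RPM.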
